A study of Mus musculus with 6 samples.

Results

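Leg muscle of mouse fetuses at embryonic day 18.5 was examined for 10 imprinted genes that act on fetal growth: *Igf2*, *Igf2r*, *H19*, *Cdkn1c*, *Dlk1*, *Meg3*, *Grb10*, *Plagl1*, *Peg3* and *Mest*. They were chosen by name from knowledge of the imprinted growth network, with earlier results of these data known. They were found by gene ID among the 56262 genes of the count table, and all 10 were among the 22071 genes that passed a filter on low counts. The RNA-seq compared 3 WT samples with 3 *SYISL* knockout (KO) samples. *SYISL* is a noncoding RNA read from within an intron of the *Synpo2* gene, and the comparison asked how fetal muscle differs where it is deleted. Parents were of the same genotype within each group, so the genotype of the fetus cannot be told apart from that of its dam or from the line the mice came from. The sources used here do not say how many fetuses went into a library, or whether the samples came from separate litters, so p-values measure only the spread between these samples. No other allele and no treatment is given for either group.

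An imprinted gene is transcribed mainly from the copy inherited from 1 parent, which is fixed by DNA methylation laid down in egg or sperm. Many such genes set the size of the fetus and the placenta: those expressed from the father's copy, such as the growth factor gene *Igf2*, often promote growth, and those expressed from the mother's copy, such as the cell cycle inhibitor gene *Cdkn1c*, often restrain it. They lie in clusters under shared control regions, and several clusters hold a long noncoding RNA beside a protein gene that is read from the opposite parental copy. Many are high in fetal muscle and fall after birth. The counts do not separate the parental alleles, so every value is the sum of both copies.

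Libraries held 82054811 to 102233181 counts, and CPM values, which set each gene's count against a common library total, use totals scaled by TMM. A count of 0 allows a level of up to 0.0293 to 0.0366 CPM, for counting error only. *SYISL* has no row of its own in the table. Its host gene *Synpo2* measured 136 ± 4.21 CPM (SD, n = 3) in WT and 214 ± 18.9 CPM in KO, so the deletion itself could not be checked here. Markers of other cells moved with genotype. The summed level of 10 muscle fibre markers was 20652 to 23090 CPM in WT and 43802 to 53407 CPM in KO, that of 10 keratinocyte markers was 16106 to 24236 and 679 to 790, and that of 6 red blood cell markers was 3934 to 5174 and 546 to 665. The 6 fat markers summed to 105 to 137 CPM in WT and 339.6 to 402 in KO, the 10 fibroblast markers to 44807 to 47550 and 53811 to 55595, and the 8 satellite cell markers to 246 to 265 and 237 to 245. Macrophage markers (6) summed to 223 to 235 CPM in WT and 353 to 387 in KO, and all 6 rose at an adjusted p under 0.05. The sums of 5 glia markers, of which 4 rose, were 75.0 to 79.1 and 104 to 123, and those of 8 cartilage markers, of which 5 fell and 2 rose, were 397 to 510.2 and 356 to 359. No list had a marker at 0 in every sample. These markers are not members, and their part in the results below was not tested. In whole tissue, a smaller share of cells of a type and less RNA per cell cannot be told apart. Libraries also differed in markers of fetal sex: *Xist*, the RNA of the inactive X, lay at 1.48, 784 and 413 CPM in WT and at 837, 588 and 604 CPM in KO, and Y-linked genes took 0.00339% to 0.0218% and 0.00367% to 0.0107% of the counts. WT replicate 3 and KO replicates 2 and 3 carried both kinds of RNA. With the Y-linked share as a covariate, no call on the 10 genes changed.

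Several of the 10 genes carry microRNAs, whose mature sequences are shown because they lie inside the transcripts measured here (RefSeq, GRCm38.p6, the seed at bases 2 to 8 in capitals). The mature microRNAs were not measured. *H19* holds *Mir675* in an exon, at chr7:142577112-142577133 for the 5p arm, an intron of *Igf2* holds *Mir483*, and an intron of *Mest* holds *Mir335*.
mmu-miR-675-5p: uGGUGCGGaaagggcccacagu
mmu-miR-675-3p: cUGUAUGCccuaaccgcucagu
mmu-miR-483-5p: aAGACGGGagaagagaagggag
mmu-miR-483-3p: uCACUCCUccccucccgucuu
mmu-miR-335-5p: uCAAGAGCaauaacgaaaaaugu

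On chromosome 12, microRNAs lie on the plus strand within the body of *Rtl1*, a gene of the minus strand. The 5 shown lie between chr12:109590459-109590479 (miR-431-5p) and chr12:109595331-109595352 (miR-136-5p). They match *Rtl1* RNA along their full length, since they are read from the opposite strand. They come from the maternal copy, like *Meg3*, and *Rtl1* comes from the paternal copy.
mmu-miR-431-5p: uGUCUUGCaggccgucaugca
mmu-miR-433-3p: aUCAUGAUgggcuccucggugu
mmu-miR-127-3p: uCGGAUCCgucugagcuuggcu
mmu-miR-434-3p: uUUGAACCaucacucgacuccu
mmu-miR-136-5p: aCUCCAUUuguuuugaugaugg
No seed was shared among the 18 mature arms matched to these hairpins. The rows of *Mir675*, *Mir770* (in *Meg3*) and the *Rtl1* microRNAs shown held 0 counts in all 6 libraries. *Mir483* held 185 to 272 counts and *Mir335* held 8 to 85. Where a hairpin lies inside an exon of another gene its reads can be credited to either or to neither, and the setting used in the counting is not stated.

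*H19*, the maternally expressed noncoding RNA at the distal end of chromosome 7, was the most abundant of the 10 and rose the most. Its level was 11872, 10776 and 11391 CPM in the WT samples and 18085, 20061 and 20544.5 CPM in the KO samples. The groups lay well apart, with the lowest KO sample far above the highest WT sample. *H19* rose 1.72-fold, with a log2 fold change of 0.79 (SE 0.0857) and an adjusted p of 6.80e-05 by the quasi-likelihood test of edgeR, adjusted by the Benjamini-Hochberg method. It was the only 1 of the 10 genes past both thresholds, an adjusted p under 0.05 and a fold over 1.5, which 8.31% of all genes tested passed upward and 8.39% downward, 16.7% in all. *H19* took 1.09% to 1.22% of all counts in WT and 1.81% to 1.98% in KO. By counts it stood at rank 4, 5 and 4 among all genes in the WT samples and at rank 2, 2 and 1 in the KO samples. The muscle fibre marker sum rose 2.26-fold over the same samples, and its part in the rise of *H19* was not tested. The neighbouring genes *Tnnt3* and *Tnni2*, which encode fast fibre troponins and lie at -79.3 and -136 kb from the *H19* start site, rose from 1368 ± 126 to 3548 ± 505 CPM and from 654 ± 49.3 to 1699 ± 247 CPM (log2 fold change 1.38 for each). *Tnnt3* is also 1 of the fibre markers. *Mrpl23*, the ribosomal protein gene nearest to *H19* on that side, measured 29.7 ± 1.91 CPM in WT and 31.8 ± 1.05 CPM in KO and did not pass the test. Farther out on that side, *Syt8*, a synaptotagmin gene at -143 kb, fell from 2.37 ± 0.153 to 0.530 ± 0.0995 CPM (-2.15), and *Ctsd*, a lysosomal protease gene at -190.1 kb, fell from 228 ± 22.3 to 151 ± 6.18 CPM (-0.59). *Ctsd* was no longer past 1.5-fold with upper-quartile scaling (-0.52) or without WT replicate 2 (-0.51) or KO replicate 1 (-0.55).

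*Igf2*, the paternally expressed growth factor gene that shares enhancers with *H19*, rose less. Its level was 143, 191 and 151 CPM in WT and 183, 211 and 237 CPM in KO. WT replicate 2 lay above KO replicate 1, so the groups overlapped. The log2 fold change was 0.38 (SE 0.116, adjusted p = 0.0230 by edgeR), with a 95% interval of 0.12 to 0.64. The adjusted p was no longer under 0.05 without WT replicate 1 (log2 fold change 0.30, adjusted p = 0.0763), WT replicate 3 (0.34, 0.0830), KO replicate 2 (0.38, 0.0634) or KO replicate 3 (0.30, 0.0902), and with DESeq2 (adjusted p = 0.0678). The *Igf2* row may be a partial reading of the gene. In the annotation, 62.8% of its 5723 exon bases, and 80.5% of its 678 coding bases when antisense exons are included, are shared with another listed gene, chiefly the read-through gene *Gm49394* on the same strand. *Gm49394* itself held 3 to 11 counts per library. Whether reads over shared exons were left out as ambiguous is not stated. Of the 2029 bases free of other genes, the largest block holds 1126. The level of *Igf2* against other genes is therefore uncertain, while its ratio between genotypes uses the same bases in all libraries. *Igf2os*, the antisense RNA over the same start region, was looked up after its values were seen. It fell from 122 ± 3.35 to 95.7 ± 2.86 CPM (log2 fold change -0.35), and without a stated strand setting its reads and those of *Igf2* cannot be told apart where they overlap.

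*Igf2r* encodes the maternally expressed receptor that takes up the IGF2 protein and delivers it for breakdown. It was nearly flat, at 449, 453 and 457 CPM in WT and 458, 456 and 459 CPM in KO. KO replicate 2 lay below WT replicate 3, and the rest of the KO samples lay above all WT samples. The log2 fold change was 0.02 (SE 0.0424, adjusted p = 0.802 by edgeR), and its 95% interval ran from -0.08 to 0.11. *Airn*, the noncoding RNA read across *Igf2r* from the paternal copy, measured 23.9 ± 0.660 CPM in WT and 24.2 ± 1.40 CPM in KO and did not pass the test either.

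*Cdkn1c*, the maternally expressed gene of the CDK inhibitor p57, lies 883 kb from the *H19* start site on the same chromosome and fell. Its level was 1731, 1602 and 1614 CPM in WT and 1486, 1318 and 1386 CPM in KO. All KO samples lay below all WT samples. It was the only 1 of the 10 genes with a fall that passed the adjusted p, with a log2 fold change of -0.24 (SE 0.0651, adjusted p = 0.0143 by edgeR) and a 95% interval of -0.39 to -0.09. The adjusted p was no longer under 0.05 without KO replicate 2 (-0.20, adjusted p = 0.0689) or KO replicate 3 (-0.23, 0.0675), and with upper-quartile scaling (-0.17, 0.0714). In the annotation, 30.7% of the 2039 exon bases of *Cdkn1c* are shared with *Gm44732* on the opposite strand. Reads over these bases cannot be assigned to 1 of the 2 genes without a stated strand setting. The neighbours of *Cdkn1c* differed among themselves. *Phlda2*, a maternally expressed gene that restrains placental growth, fell from 0.735 ± 0.0848 to 0.161 ± 0.0246 CPM (log2 fold change -2.18), and *Slc22a18*, a transporter gene between them, from 1.18 ± 0.0811 to 0.738 ± 0.0924 CPM (-0.68). Both were at low levels. *Kcnq1*, a potassium channel gene read from the maternal copy, rose from 3.32 ± 0.316 to 5.69 ± 0.525 CPM (0.78), and *Kcnq1ot1*, the noncoding RNA that overlaps it on the other strand, stayed at -0.01 without passing. Reads of these overlapping RNAs cannot be told apart without a stated strand setting. Of the other CDK inhibitor genes, 7 were tested. *Cdkn2b* fell (log2 fold change -1.29), and *Cdkn1a*, the most abundant, had a log2 fold change of -0.09 without passing. At an adjusted p under 0.05, 3 of the 7 rose and 2 fell, where 21.9% of all genes tested rose and 23.1% fell.

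**Figure D1:**
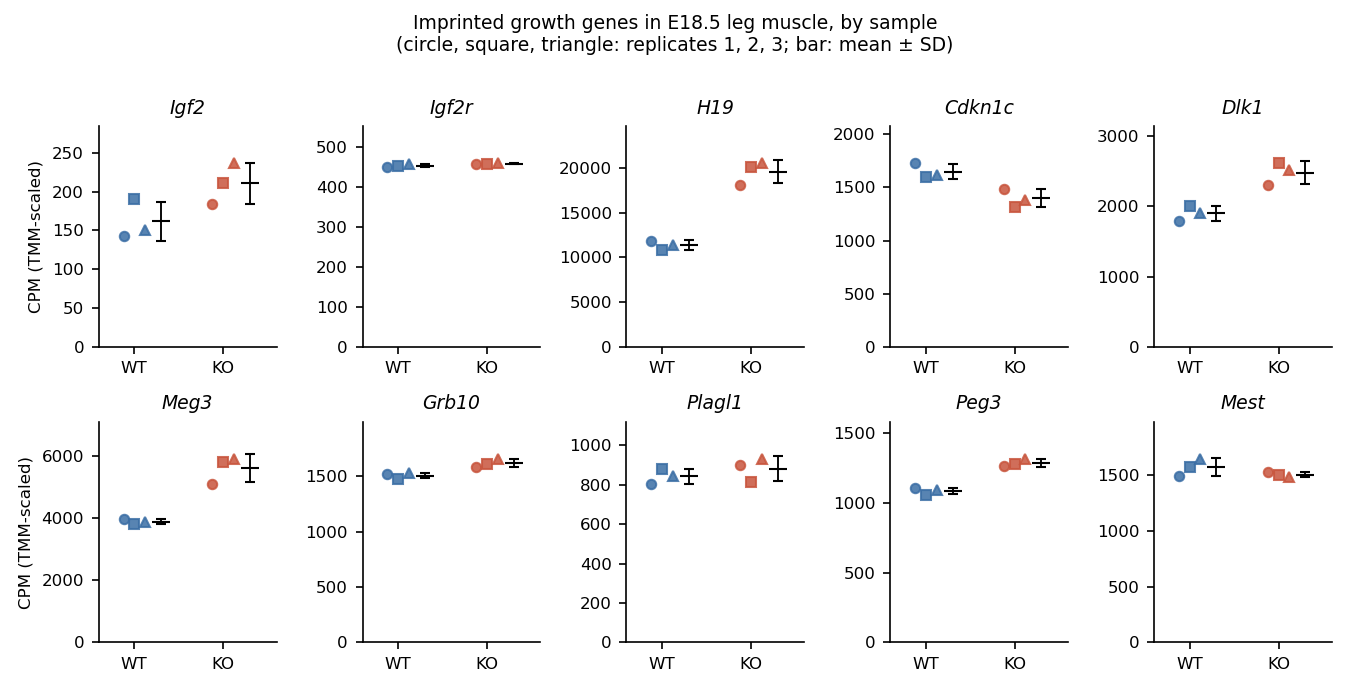
CPM (TMM-scaled, linear axes from 0) of each of the 10 genes in the 3 WT samples (blue) and 3 KO samples (red), with the mean ± SD beside the points. *H19*, *Dlk1*, *Meg3*, *Grb10* and *Peg3* have all KO points above all WT points, *Cdkn1c* has them below, and *Igf2*, *Igf2r*, *Plagl1* and *Mest* overlap.

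*Dlk1* and *Meg3* are the reciprocally imprinted pair of the chromosome 12 cluster, and their promoter windows are shown because the genes around them rose together. *Dlk1*, read from the paternal copy, encodes a membrane protein of the Notch ligand family that is made in fetal muscle and in fat precursors, and *Meg3* is a noncoding RNA read from the maternal copy. Both windows are of 300 bases (RefSeq, GRCm38.p6, plus strand): the *Dlk1* window is chr12:109452573-109452872, with 55.7% GC and 9 CpG, and the *Meg3* window is chr12:109540746-109541045, with 53.7% GC and 13 CpG. Neither holds any of the motifs searched, which are given with the *Peg3* window, so neither has capitals.
Dlk1 window: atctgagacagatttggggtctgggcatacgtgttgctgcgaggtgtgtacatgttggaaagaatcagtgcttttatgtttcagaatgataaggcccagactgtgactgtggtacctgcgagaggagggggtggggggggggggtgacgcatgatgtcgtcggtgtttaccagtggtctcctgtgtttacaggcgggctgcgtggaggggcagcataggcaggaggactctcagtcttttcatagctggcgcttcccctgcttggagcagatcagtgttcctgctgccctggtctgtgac
Meg3 window: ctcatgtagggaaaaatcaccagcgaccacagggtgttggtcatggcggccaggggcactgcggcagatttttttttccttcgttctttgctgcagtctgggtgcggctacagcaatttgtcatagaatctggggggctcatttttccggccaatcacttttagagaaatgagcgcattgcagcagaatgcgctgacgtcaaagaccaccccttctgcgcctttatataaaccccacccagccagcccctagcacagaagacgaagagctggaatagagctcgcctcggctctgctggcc

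*Dlk1* measured 1789.9, 2004 and 1907.5 CPM in WT and 2308, 2618 and 2518 CPM in KO. The groups did not overlap. The log2 fold change was 0.38 (SE 0.0715, adjusted p = 0.00191 by edgeR), or 1.31-fold, and the adjusted p stayed under 0.05 in all 16 alternative fits. *Meg3* measured 3966, 3825 and 3858 CPM in WT and 5095, 5807 and 5913 CPM in KO. Here too all KO samples lay above all WT samples, and KO replicate 1 was the lowest of the KO samples for both genes, as it was for *H19* and *Igf2*. The log2 fold change of *Meg3* was 0.53 (SE 0.0760, adjusted p = 3.96e-04 by edgeR), or 1.44-fold, just under the threshold of 1.5. *Meg3* passed that threshold without KO replicate 1 (0.60) and with upper-quartile scaling (0.60).

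The 3 nearest listed genes after *Meg3* moved the same way. *Rtl1*, a paternally expressed gene derived from a retrotransposon, rose from 214 ± 11.0 to 358 ± 20.2 CPM (log2 fold change 0.75). *Rian*, a maternally expressed RNA that carries small nucleolar RNAs, rose from 2503 ± 129 to 3858 ± 409 CPM (0.62), and *Mirg*, a maternally expressed microRNA host that was named after its values were seen, rose from 285 ± 1.84 to 433 ± 36.0 CPM (0.60). *Rian* was no longer past 1.5-fold with library size alone as scaling (0.55) or without KO replicate 2 (0.58) or KO replicate 3 (0.58), and *Mirg* with library size alone (0.53) or without KO replicate 2 (0.56). The 5 genes together took 0.878% to 0.917% of the counts in WT and 1.15% to 1.29% in KO. *Rtl1* reads and those of the transcripts on its opposite strand cannot be told apart without a stated strand setting. Beyond these genes the rise did not continue: *Begain*, at -473 kb from the *Meg3* start site, fell (-0.24), and *Wdr25*, *Wars*, *Dio3* and *Ppp2r5c*, at -647 to 906 kb from it, did not pass the test. Of 13 genes on a list drawn up for DLK1 and Notch, not all of them Notch pathway genes, 4 rose, 2 fell and 7 did not pass. Of all genes tested, 21.9% rose and 23.1% fell. *Fn1*, the most abundant of the 13, rose from 1682 ± 98.3 to 2045 ± 100.2 CPM (0.28), and none of the 13 passed 1.5-fold.

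**Figure D2:**
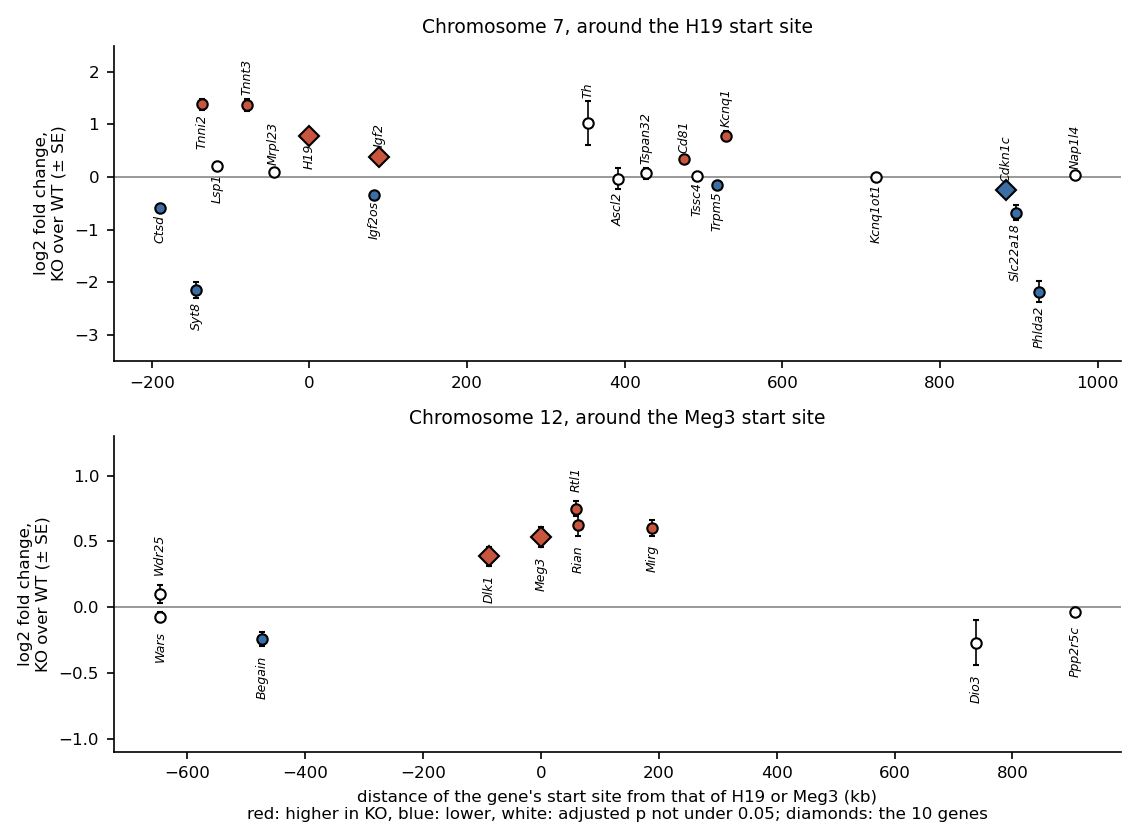
Log2 fold change (KO over WT, ± SE from edgeR) of the tested genes around *H19* and around *Meg3*, against the distance of their start sites in kb, with positive distances toward higher coordinates. Colour marks an adjusted p under 0.05. The 5 genes from *Dlk1* to *Mirg* lie between 0.38 and 0.75, while the genes around *H19* range from -2.18 (*Phlda2*) to 1.38 (*Tnni2*).

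*Peg3*, a paternally expressed zinc finger gene at the proximal end of chromosome 7, rose by a small and even step. Its window (RefSeq, GRCm38.p6, minus strand, chr7:6730370-6730669, 61.3% GC, 13 CpG) is shown because it also holds the start site of *Usp29*, a paternally expressed gene read in the other direction. The capitals mark GGGGCCCC, a palindrome bound by the zinc finger protein PLAGL1, whose gene is 1 of the 10.
Peg3 window: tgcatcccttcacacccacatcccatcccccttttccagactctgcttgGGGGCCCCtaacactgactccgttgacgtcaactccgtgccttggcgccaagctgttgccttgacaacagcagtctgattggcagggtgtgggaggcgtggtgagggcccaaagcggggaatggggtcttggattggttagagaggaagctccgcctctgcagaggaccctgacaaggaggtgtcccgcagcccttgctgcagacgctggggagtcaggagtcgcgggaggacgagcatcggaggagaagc
On both strands, 15 promoter windows of 8 of the 10 genes were searched for GGGGCCCC, for CAGCTG (an E-box of the myogenic factors) and for AANATGG (the core of the YY1 motif). GGGGCCCC was in 1 of the 15 windows and in 1.07% of 32817 windows of the same length over the genome. CAGCTG was in 1, that of *Mest*, and in 16.3% of all windows, and AANATGG was in 2, those of *Grb10* and *Igf2*, and in 16.1%. No window of the 10 genes held more than 1 match. A match is a run of letters and not a measured binding site.

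*Peg3* measured 1108, 1061 and 1091 CPM in WT and 1266, 1280.3 and 1319 CPM in KO. All KO samples lay above all WT samples. The log2 fold change was 0.25 (SE 0.0517, adjusted p = 0.00389 by edgeR), and the adjusted p stayed under 0.05 in all 16 alternative fits. *Usp29*, whose start lies 0.147 kb away, rose from 53.4 ± 0.649 to 74.0 ± 4.30 CPM (0.47), and *Zim1*, the maternally expressed zinc finger gene on the other side, from 354 ± 7.04 to 480.1 ± 44.0 CPM (0.44). Neither reached 1.5-fold.

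*Plagl1*, a paternally expressed zinc finger gene known to regulate other imprinted genes, overlapped between genotypes. It measured 803, 880.1 and 845 CPM in WT and 902, 811 and 932 CPM in KO, and KO replicate 2 lay below 2 of the WT samples. The log2 fold change was 0.07 (SE 0.0662, adjusted p = 0.459 by edgeR), with a 95% interval of -0.08 to 0.21. *Mest*, a paternally expressed gene of the mesoderm, also overlapped, at 1488, 1570.0 and 1645 CPM in WT and 1527, 1496 and 1482 CPM in KO. The KO samples were close together and fell within the lower part of the WT range, apart from KO replicate 3 just under it. Its log2 fold change was -0.06 (SE 0.0585, adjusted p = 0.425 by edgeR), with a 95% interval of -0.19 to 0.07. *Copg2* and *Cep41*, beside *Mest*, had log2 fold changes of -0.07 and -0.10, and *Cep41* alone passed the test (adjusted p = 0.0481 by edgeR). *Cpa4*, a carboxypeptidase gene of the same region, fell from 65.3 ± 6.80 to 24.7 ± 0.721 CPM (-1.40).

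*Grb10* encodes an adaptor that dampens signalling from the insulin and IGF receptors and is read from the maternal copy in most fetal tissues. It measured 1518, 1477 and 1526 CPM in WT and 1585, 1615 and 1660.1 CPM in KO. The groups did not overlap, yet the test was not passed, with a log2 fold change of 0.10 (SE 0.0534, adjusted p = 0.144 by edgeR) and a 95% interval of -0.02 to 0.22. It passed with upper-quartile scaling (0.17, adjusted p = 0.0324). Its neighbours moved in opposite directions: *Cobl*, an actin nucleator gene, fell from 127 ± 11.8 to 95.4 ± 6.22 CPM (-0.41), and *Ddc*, which encodes an enzyme of dopamine synthesis, rose from 49.1 ± 2.03 to 62.3 ± 6.81 CPM (0.34).

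**Figure D3:**
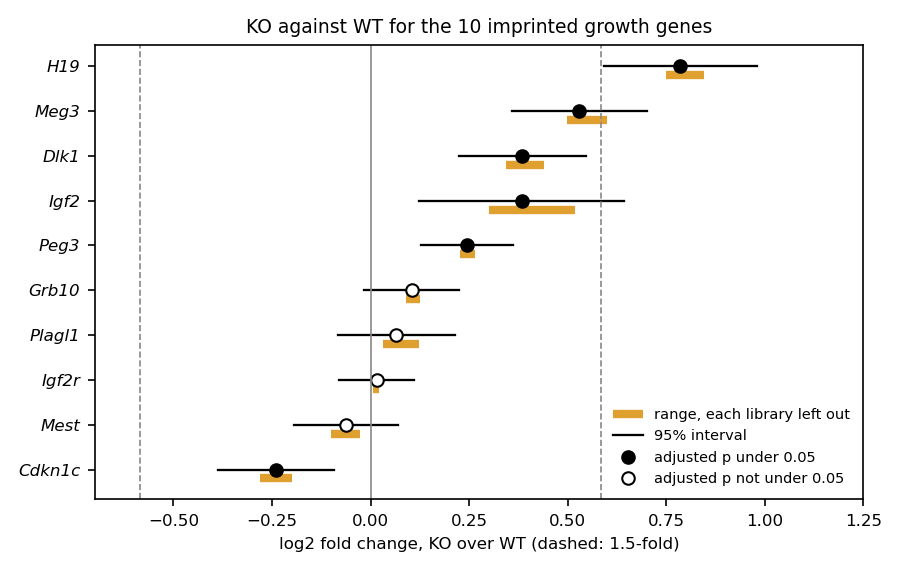
Log2 fold change (KO over WT) of the 10 genes from edgeR, with the 95% interval as a black line and the range over fits that leave out each library in turn as a yellow bar. Filled points have an adjusted p under 0.05. The order runs from *H19* (0.79) to *Cdkn1c* (-0.24), and the yellow bar is widest for *Igf2* (0.30 to 0.52).

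Counted over the 10 genes, 5 rose and 1 fell at an adjusted p under 0.05 at any fold, and 4 did not pass (*Grb10*, *Plagl1*, *Igf2r* and *Mest*). Of all genes tested, 21.9% rose and 23.1% fell by this rule, 45.0% in all. The median log2 fold change of the 10 genes was 0.18, against -0.00415 over all genes tested. As the 10 were chosen with earlier results of these data known, these comparisons with all genes are descriptions. In 6 of the 10 genes the groups did not overlap, 5 with KO higher and 1 with KO lower, where 27.3% of all genes tested lay higher, 28.5% lay lower and 55.9% did not overlap in all. The genes that rose were of both parental origins: *Igf2*, *Dlk1* and *Peg3* are read from the paternal copy and *H19* and *Meg3* from the maternal copy. Together the 10 genes took 2.40% to 2.57% of the counts in WT and 3.30% to 3.51% in KO, and without *H19* 1.32% to 1.35% and 1.48% to 1.53%.

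Levels were compared between genes per kb of annotated exon. On this scale *H19* stood first, at 4612 CPM per kb in WT and 7953 in KO, followed in WT by *Cdkn1c* (809 and 685), *Mest* (397 and 381), *Dlk1* (336 and 439), *Meg3* (215 and 309.9), *Grb10* (166 and 178), *Plagl1* (108 and 113), *Peg3* (81.6 and 96.7), *Igf2r* (48.7 and 49.2) and *Igf2* (28.2 and 36.8). *Dlk1* stood below *Mest* in WT and above it in KO, and the ranges of neighbours in this order did not overlap in either genotype. The place of *Igf2* depends on the exon length its count is set against. Another scale divided each whole count by the exon bases that no other gene covers on either strand. It holds only if all reads over shared bases were left out, which is not stated. On it *Igf2* measured 79.6 CPM per kb in WT and 104 in KO, above *Igf2r*. Its range overlapped that of *Peg3* (81.6 and 96.7) in both genotypes and that of *Plagl1* (108 and 113) in KO. On that scale *Mest* (517 and 495) stood above *Dlk1* (336 and 439) in both genotypes. The *Mest* bases taken out there are shared only with *Copg2*, on the opposite strand. That order therefore also requires counting that ignored strand. Counts were not corrected for which exons are used, so these levels are approximate.

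Ratios taken within a library need no scaling between libraries. Those with *Igf2* rest on a row that may be a partial reading, so their level is uncertain. The log2 ratio of *H19* to *Igf2* counts was 6.37, 5.82 and 6.24 in WT and 6.62, 6.57 and 6.44 in KO, a difference of 0.40. All KO ratios lay above all WT ratios, as they did for *Igf2* against *Cdkn1c*, a growth promoter against a growth restrainer (-3.60, -3.07 and -3.42 in WT, -3.02, -2.64 and -2.55 in KO, difference 0.63). For *Meg3* against *Dlk1* the ratios overlapped (1.15, 0.93 and 1.02 in WT, 1.14, 1.15 and 1.23 in KO, difference 0.14), and so did those of *Igf2* against its clearance receptor *Igf2r* (-1.65, -1.25 and -1.60 in WT, -1.32, -1.11 and -0.96 in KO, difference 0.37). An exact two-sided permutation test gave p = 0.1 for the first pair of ratios, the smallest that 3 against 3 samples can give, and p = 0.2 for the others. Adjusted over the 4 ratios by the Benjamini-Hochberg method, each exact p was 0.2.

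**Figure D4:**
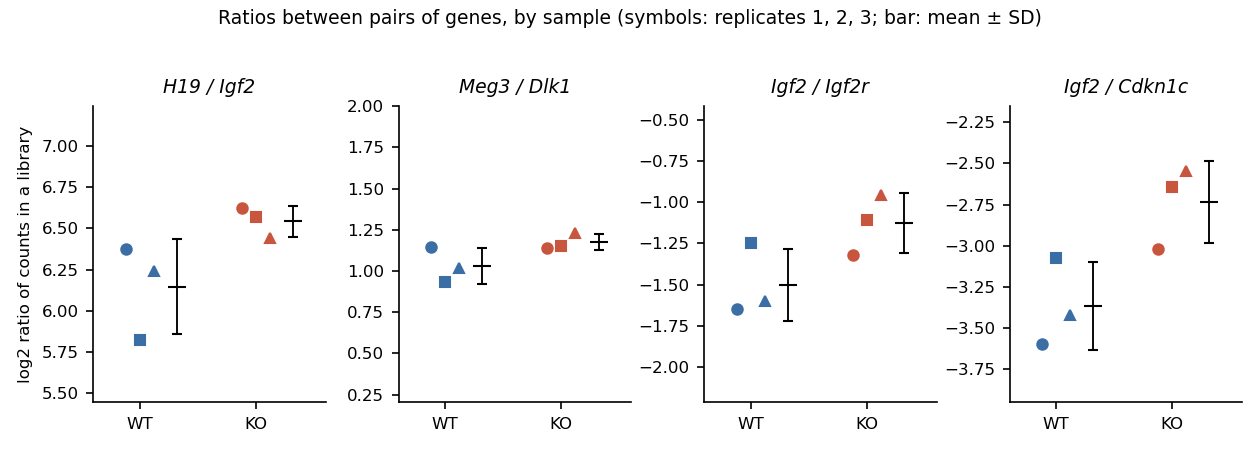
Log2 ratios of counts between pairs of genes within each library, for 3 WT samples (blue) and 3 KO samples (red), with the mean ± SD beside the points. Each panel spans the same height on the log2 axis and none starts at 0. KO points lie above all WT points for *H19* to *Igf2* and for *Igf2* to *Cdkn1c*.

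Other imprinted genes were read beside the 10. Of 45 listed, 42 were tested. Among 22 paternally expressed genes, 7 rose and 6 fell at an adjusted p under 0.05, and the median log2 fold change was -0.01. *Nap1l5*, a nucleosome assembly gene, rose from 1.27 ± 0.257 to 2.12 ± 0.108 CPM (0.74) but was no longer past 1.5-fold without WT replicate 3 (0.57). *Peg10*, a retrotransposon-derived gene needed in the placenta and the most abundant of this list, fell from 649 ± 2.39 to 471 ± 11.6 CPM (-0.46). Among 20 maternally expressed genes, 7 rose and 7 fell, and the median was 0.04. Over all genes tested, 21.9% rose and 23.1% fell by the same rule. Besides the genes of the chromosome 12 and chromosome 7 clusters already named, *Asb4*, a gene of the *Peg10* cluster named after its values were seen, fell from 45.9 ± 0.220 to 31.4 ± 0.766 CPM (-0.55).

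The partners of IGF2 were read next. Of 16 tested genes of the IGF axis, 9 rose and 4 fell at an adjusted p under 0.05, and the median log2 fold change was 0.16. Over all genes tested, 21.9% rose and 23.1% fell by this rule. *Igfbp3*, which encodes an IGF carrier in blood and tissue, rose from 288 ± 2.29 to 505 ± 28.2 CPM (0.81). *Igfals*, the subunit that stabilises that carrier in blood, rose from 0.174 ± 0.0520 to 0.486 ± 0.0229 CPM (1.48). The level of *Igfals* was low, at 13 to 22 counts per library in WT and 45 to 48 in KO. *Igfbp5*, the most abundant of the list, was at 1182 ± 2.09 and 1157 ± 31.2 CPM and did not pass the test. The other genes given here were named after their values were seen. *Igf1*, the gene of the other ligand, rose by 0.17, the signalling receptor genes *Igf1r* by 0.15 and *Insr* by 0.50, and the adaptor gene *Irs2* by 0.54 on the log2 scale. The genes of 3 proteins that bind *Igf2* mRNA fell: *Igf2bp1* (-0.58), *Igf2bp3* (-0.35) and *Igf2bp2* (-0.20).

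The imprint maintenance list holds genes that keep imprints, and also enzyme genes that lay down methylation (*Dnmt3a*, *Dnmt3b*) or oxidise methylcytosine (*Tet1*, *Tet2*, *Tet3*). Its genes fell in larger number than they rose, and the falls were small. Of 16 tested, 12 fell and 2 rose at an adjusted p under 0.05. By this rule 23.1% of all genes tested fell and 21.9% rose. The rises were *Tet1* and *Tet2*, and *Tet3* was among the falls. The median log2 fold change was -0.19, against -0.00415 over all genes tested, and none of the falls reached 1.5-fold. *Trim28*, a corepressor and the most abundant of the list, fell from 248 ± 9.23 to 200 ± 5.41 CPM (-0.32). Named after their values were seen, the maintenance methyltransferase gene *Dnmt1* fell by 0.28, its partner gene *Uhrf1* fell by 0.43, and the zinc finger gene *Zfp57* fell by 0.20 on the log2 scale. *Tet2*, an enzyme gene of methylcytosine oxidation, rose from 38.9 ± 0.794 to 63.6 ± 2.52 CPM (0.71). The sum of 8 proliferation markers was 1075 to 1109 CPM in WT and 919 to 1008 CPM in KO. Of these 8 markers, 7 fell at an adjusted p under 0.05. Their part in the falls of the imprint maintenance list was not tested, and DNA methylation was not measured in these samples.

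**Figure D5:**
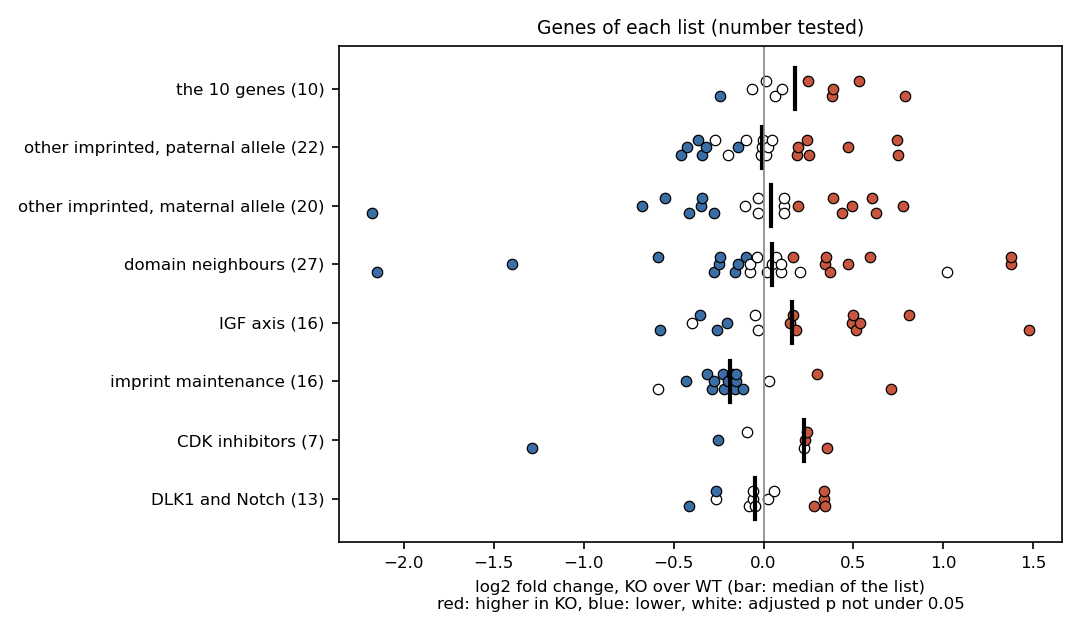
Log2 fold change (KO over WT) of each tested gene of the 10 and of the other lists, with the median of each list as a bar and colour for an adjusted p under 0.05. Medians run from -0.19 (imprint maintenance) to 0.22 (CDK inhibitors), and each list holds genes on both sides of 0.

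The profile of *Igf2* over the 6 samples was compared with that of 12370 genes with a mean of at least 5 CPM, by the root mean square distance between centred log2 CPM values. The 3 nearest genes outside the lists were *Gm14121* (distance 0.0671), *Egln3* (0.0829) and *Foxd3* (0.0890). Among the other 9 genes *Dlk1* was nearest, at 0.116 and rank 34, followed by *Meg3* at rank 629 and *Peg3* at rank 1316, and *Cdkn1c* was the farthest, at rank 10238. *H19*, the neighbour of *Igf2* on the chromosome, stood at rank 5469 with a distance of 0.265. The values were centred but not scaled, so a larger rise than that of *Igf2* also adds distance. The nearly flat genes *Plagl1* (log2 fold change 0.07, rank 2854) and *Igf2r* (0.02, rank 4473) stood nearer than *H19* (0.79). The rank of *H19* therefore does not show whether it moved with *Igf2*.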

How the data were processed

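The authors extracted total RNA from leg muscle of WT and *SYISL* KO fetuses, trimmed reads with Trim Galore 0.6.6, mapped them to mm10 with HISAT2 2.2.1 and counted them with featureCounts 2.0.1, as the methods and the submitters' processing notes give. The deposited values are raw counts, not normalized. The gene annotation and the strand setting are not given in the sources used here. Per-sample tables equalled the 6 columns of the series table. GENCODE M21 holds 55227 of the 56262 IDs and 99.9963% of the counts.

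Counts were tested in R 4.3.3 with edgeR 4.0.16 (filterByExpr, TMM, quasi-likelihood test on genotype alone, Benjamini-Hochberg adjustment over 22071 genes). A call needed an adjusted p under 0.05 with a fold over 1.5. Alternatives were RLE, upper-quartile and no scaling factors, other filters, DESeq2 1.42.0, limma-voom (limma 3.58.1), a replicate block, a sex covariate, other thresholds and leaving out each library. Leaving out *H19* was added after the data were seen. Between libraries of 1 genotype the chi-square per gene averaged 5.17 to 35.5, where counting noise gives about 1. The 5.17 was for KO replicates 2 and 3, and the next lowest was 13.7, for WT replicates 1 and 3. Each library was used as a replicate.

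The 10 genes and the lists were chosen with earlier results of these data known. Named genes were the 10, the largest called rises and falls of each list (up to 2 each way), the most abundant gene of each list, and neighbours of the 10. Others are named as chosen later.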

Additional observations from a re-analysis of the deposited data

How the results depend on the processing

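Over 16 alternative fits, *H19* was called in all 15 that included it (log2 fold change 0.72 to 0.85), and *Dlk1*, *Meg3* and *Peg3* kept an adjusted p under 0.05 in all 16. The number of the 10 genes called higher was 1. It was 2 with upper-quartile scaling, 1 to 2 when each library was left out, 0 without *H19* in the table, 0 at a fold over 2 and 5 by adjusted p alone. The number called lower was 0, and 1 by adjusted p alone. The number that fell at an adjusted p under 0.05 at any fold was 1, but 0 with upper-quartile scaling and 0 to 1 when each library was left out. Over the other lists, 11 genes were called higher and 6 lower, against 3 higher at a fold over 2 and 40 higher and 42 lower by adjusted p alone. Of all genes tested, 8.31% were called higher and 8.39% lower, and 21.9% were higher and 23.1% lower by adjusted p alone. The direction turned for *Mest* with upper-quartile scaling (0.0058), and for *Plagl1* (-0.0018) and *Igf2r* (-0.053) with library size alone; none of these passed a test in either fit. Upper-quartile scaling moved the median of all genes to 0.06 and library size alone to -0.07. The differences in log2 ratio ranged, over fits without 1 library, from 0.24 to 0.51 (*H19* to *Igf2*), 0.09 to 0.20 (*Meg3* to *Dlk1*), 0.29 to 0.50 (*Igf2* to *Igf2r*) and 0.51 to 0.77 (*Igf2* to *Cdkn1c*).

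Samples with the same replicate number deviated from their group means with correlations of -0.21, -0.14 and 0.04, so the numbers were not taken as pairs. With a replicate block, the log2 fold change of *H19* was 0.78 and no call on the 10 genes changed, 1744 genes were called higher and 1777 lower, and the differences in log2 ratio were 0.40, 0.14, 0.37 and 0.63.

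With 3 samples a group, the smallest p of the exact permutation test is 0.1.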
